A study of Mus musculus with 12 samples.

Results

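The 10 subunits of DREAM and of its MuvB core were examined at the transcript level: the pocket proteins Rbl1 (p107) and Rbl2 (p130), the E2F and DP subunits E2f4, E2f5 and Tfdp1, and the MuvB core Lin9, Lin37, Lin52, Lin54 and Rbbp4. They were taken by gene symbol from a list that used no measured value, and all 10 were found among the 23337 genes of each count table. DREAM is a repressor of resting cells. In it, a pocket protein holds an E2F-DP pair, which contacts E2F sites of G1/S genes, and the MuvB core, whose subunit LIN54 contacts the CHR element (cell cycle genes homology region) of G2/M genes. On entry into the cell cycle, cyclin-dependent kinases release the pocket protein, and the MuvB core then pairs with B-MYB and FOXM1 and activates genes of mitosis.

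RNA came from peeled urothelium, the epithelial lining of the urinary tract, of mice labelled Stag2-WT or Stag2-KO. The Stag2 gene, on chromosome X, encodes a cohesin subunit, and the study's title links its loss to DREAM and to quiescence. All mice, WT included, received TMX (read here as tamoxifen) in the diet, and tissue was taken 1 week or 1 month after that diet began. Each genotype at each time made 1 of 4 groups, with 3 libraries per group. The allele, the driver of any recombinase, the strain, the age and the sex of the animals are not given in the sources used here.

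The promoters of the subunits were searched for the letters that the complex is known to contact, because several subunit genes are themselves cell cycle genes. Both strands of RefSeq windows of 300 bases around annotated start sites (GRCm38.p6) were searched for 4 versions of the E2F letters (TTCCCGC as one version, TTCGCGC as another, then TTGGCGC, and last TTGCCGC) and for the CHR letters TTTGAA. The table held windows for 7 of the 10 subunits, 9 windows in all; Lin9, E2f4 and E2f5 had none. The E2F letters were found in windows of Rbl1, Tfdp1, Lin52 and Rbbp4, and the CHR letters in windows of Rbl2, Lin37 and Lin54. No window of these 7 genes held both. E2F letters stood in 55.6% of the 9 windows against 9.57% of all 32851 windows, and CHR letters in 44.4% against 17.9%. Windows of Tfdp1 overlap and hold the same site, so that site is counted more than once in these shares. Stretches with the E2F letters in capitals are shown on the strand of the gene, from 5′ to 3′. The first is Rbl1 at chr2:157204535-157204562 (minus strand), with the letters at position -17 from the start site. Tfdp1 lies at chr8:13338697-13338725 (plus strand), Lin52 at chr12:84451471-84451499 (plus strand) and Rbbp4 at chr4:129335371-129335396 (minus strand). In Tfdp1 the letters are on the opposite strand, and in Rbbp4 the letters shown overlap with TTCGCGC on the other strand.
Rbl1: agaaggcgattTTCGCGCgctttgtcgc
Tfdp1: gggcgccgaagGCGCGAAaaggcgcgcag
Lin52: ggatcctcgctTTCCCGCcgacggttggt
Rbbp4: attggtcggtgTTGGCGCgaaggcac

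The CHR letters are shown in the same way for Rbl2 at chr8:91069845-91069872 (plus strand, letters on the opposite strand), Lin37 at chr7:30559827-30559854 (minus strand) and Lin54 at chr5:100498719-100498746 (minus strand). Lin54 has a further start site whose window held the letters once more.
Rbl2: gtctttttctcTTCAAAcgagccttctg
Lin37: agcctcggaagTTTGAAtcacaaccccc
Lin54: ccctgagtgcgTTTGAAggttggcgggg

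For comparison, the letters in 3 genes that DREAM is known to repress are shown: Mki67 (a marker of cycling cells, CHR letters at chr7:135716479-135716506), Mcm3 (a subunit of the replicative helicase, E2F letters at chr1:20820276-20820304) and Brca1 (a DNA repair gene, E2F letters at chr11:101551917-101551945), all on the minus strand. Among the 24 windows found for 21 of 25 known targets of the E2F type, 75% held E2F letters and 12.5% CHR letters. Among the 27 windows found for 25 of 30 known targets of the CHR type, 74.1% held CHR letters and 25.9% E2F letters. The window of Mki67 also held E2F letters, and that of Cenpe, a CHR-type target described further on, held neither. A match is only a run of letters and shows no binding.
Mki67: tagcgccagaaTTTGAAccgccgttttg
Mcm3: aaacttccgtgGCGGGAAaacttgggaag
Brca1: gctagcgctagGCGCCAAgcggccggttt

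Libraries held 5580961 to 9497088 counts, so that 3 counts correspond to 0.316 to 0.538 CPM (counts relative to the library total, scaled by TMM within each time). KO replicate 3 of 1 week stood apart, with a Spearman correlation across 13122 genes of 0.746 to 0.842 with the other 5 libraries of its time, against 0.901 to 0.986 among those 5. At 1 week every KO library carried Xist, an X-linked RNA of female cells, at 6392 to 10406 counts, whereas the WT libraries had 1 to 13 counts and 1360 to 2140 counts of Y-linked genes. Genotype and sex can therefore not be told apart at 1 week. At 1 month KO replicate 3 was the 1 library with Xist (7764 counts) and no Y-linked counts. All libraries of 1 week formed batch 1 in the labels, and those of 1 month formed batches 2 (replicates 1 and 2 of both genotypes) and 3 (replicate 3 of both), so time and batch cannot be told apart and levels were not tested across times. Markers of urothelium summed to 11534 to 31251 CPM in every library, with all 18 listed markers detected, and stromal markers to 3599 to 13806 CPM, so the peeled tissue also held RNA of stroma. In bulk tissue, fewer cells of a type and less RNA per cell cannot be told apart.

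Stag2 itself was lower in every KO library than in every WT library at both times. It had 120, 108 and 154 CPM in WT and 76.2, 61.1 and 69.3 CPM in KO at 1 week, and 59.2, 61.9 and 46.4 CPM in WT and 38.0, 36.4 and 19.3 CPM in KO at 1 month. The log2 fold change of KO against WT was -0.89 (SE 0.27, edgeR quasi-likelihood test with Benjamini-Hochberg adjustment, adjusted p = 0.198) at 1 week and -0.88 (SE 0.22, edgeR adjusted p = 0.0507) at 1 month, and neither passed the threshold of 0.05, whereas DESeq2 gave adjusted p-values of 0.0355 and 0.0145. Reads of this kit come from the 3′ ends of transcripts, and a deletion elsewhere in the gene could leave that end to be counted. The allele is not given, and the source of the remaining Stag2 counts in KO was not tested.

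No subunit transcript passed the adjusted threshold at either time. At 1 week all 10 subunits passed the filter on low counts and 0 were called by edgeR, where 0.0627% of the 12754 genes tested were called. DESeq2, which called 7.50% of these genes, also called 0 of the 10. At an unadjusted p under 0.05 edgeR took 1 of 10 (Rbl1), against 15.5% of all genes. At 1 month 8 subunits passed the filter and 0 were called, against 2.22% of 12139 genes by edgeR and 6.43% by DESeq2, and 1 of 8 (Rbbp4) had an unadjusted p under 0.05, against 21.5% of genes. The interaction of genotype with time called 0 of 10 subunits, against 0% of 13122 genes by edgeR and 6.99% by DESeq2, and 1 of 10 (Rbl1) had an unadjusted p under 0.05, against 19.9%. These shares of subunits are near those of all genes.

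**Figure D1:**
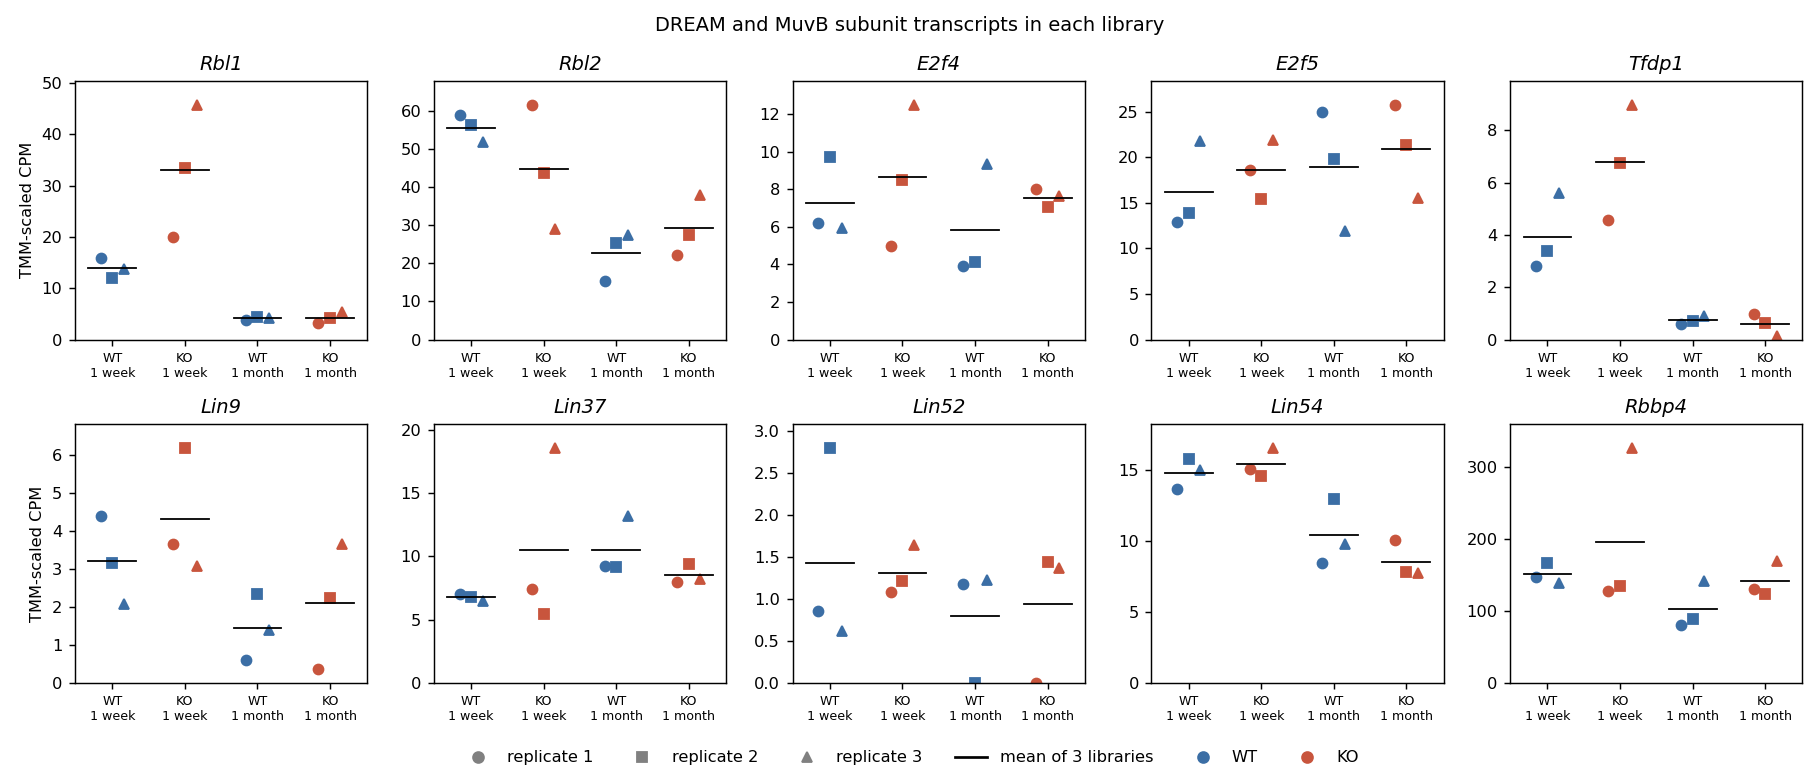
TMM-scaled CPM (vertical axes, from 0) of each of the 10 subunit transcripts in the 12 libraries, by genotype and time (horizontal axes); each point is 1 library, its shape the replicate, and each bar the mean of 3 libraries. Rbl1 at 1 week is the subunit whose KO libraries (19.9 to 45.8 CPM) all sit above the WT libraries (11.9 to 15.9 CPM).

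The pocket proteins differed from each other in how their transcripts lay between the genotypes. Rbl1, which encodes p107 and is itself an E2F-regulated gene that rises as cells enter the cycle, lies at chr2:157145893-157204534 (minus strand, GRCm38). At 1 week it had 15.9, 11.9 and 13.8 CPM in WT replicates 1 to 3 and 19.9, 33.4 and 45.8 CPM in KO replicates 1 to 3. Every KO library was above every WT library, and the lowest KO library was close to the highest WT library. Such a separation upward was seen in 1 of 10 subunits, against 14.1% of all genes tested, and 0 of 10 downward, against 12.5%. The log2 fold change was 1.25 (SE 0.38, fold 2.37, edgeR adjusted p = 0.196), and DESeq2 gave 1.26 with an adjusted p of 0.0530. Without KO replicate 3 the edgeR log2 fold change was 0.90 (adjusted p = 0.157). At 1 month Rbl1 had 3.74, 4.32 and 4.28 CPM in WT and 3.21, 4.15 and 5.33 CPM in KO, with overlapping groups and log2 fold change 0.02 (SE 0.39, edgeR adjusted p = 0.982). Within batch 2 it was -0.13 and within batch 3 0.29. The change in the genotype effect from 1 week to 1 month was -1.22 on the log2 scale (SE 0.50, edgeR adjusted p = 0.217), so the effects of both times were not shown to differ. Sex and genotype cannot be told apart at 1 week, and that limit carries into this contrast.

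Rbl2 encodes p130, the pocket protein that prevails in DREAM of resting cells. It lies at chr8:91070057-91123844 (plus strand) and overlaps exons of Aktip and Gm45464 on the opposite strand. Such overlaps were also found for E2f5 (1810022K09Rik), Lin37 (Hspb6), Rbbp4 (Gm26722 and Sync) and Stag2 (Gm37564). The kit marks strand, and whether the counts were made by strand was not tested. At 1 week Rbl2 had 58.8, 56.2 and 51.7 CPM in WT and 61.6, 43.7 and 29.0 CPM in KO. The WT libraries lay close together, and the KO libraries spread to both sides of them. The log2 fold change was -0.31 (SE 0.33, edgeR adjusted p = 0.664), with -0.13 without KO replicate 3 and -0.62 without KO replicate 1. At 1 month Rbl2 had 15.3, 25.2 and 27.4 CPM in WT and 22.1, 27.5 and 38.0 CPM in KO, and the groups overlapped. Its log2 fold change there was 0.35 (SE 0.25, edgeR adjusted p = 0.442), with 0.32 within batch 2 and 0.47 within batch 3.

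The balance of both pocket proteins was taken in each library as log2 CPM of Rbl1 minus log2 CPM of Rbl2. At 1 week it was -1.87, -2.21 and -1.89 in WT and -1.62, -0.39 and 0.65 in KO. KO libraries all lay above WT libraries and covered a wider range, with KO replicate 1 next to WT. The mean was -1.99 ± 0.19 (SD, n = 3) in WT and -0.45 ± 1.14 in KO, a difference of 1.54 (two-sided exact permutation test, p = 0.1, adjusted over both times 0.1), and 0.99 without KO replicate 3. At 1 month it was -1.95, -2.46 and -2.59 in WT and -2.67, -2.64 and -2.77 in KO, so that KO libraries all lay below WT libraries. The means were -2.33 ± 0.34 (SD, n = 3) and -2.69 ± 0.07, a difference of -0.36 (two-sided exact permutation test, p = 0.1, adjusted 0.1), and -0.16 without WT replicate 1. With 3 libraries against 3, 0.1 is the smallest p this test can give, so the design cannot reach 0.05. The same order within each batch of 1 month follows from the separation of all KO from all WT libraries and adds no support.

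**Figure D2:**
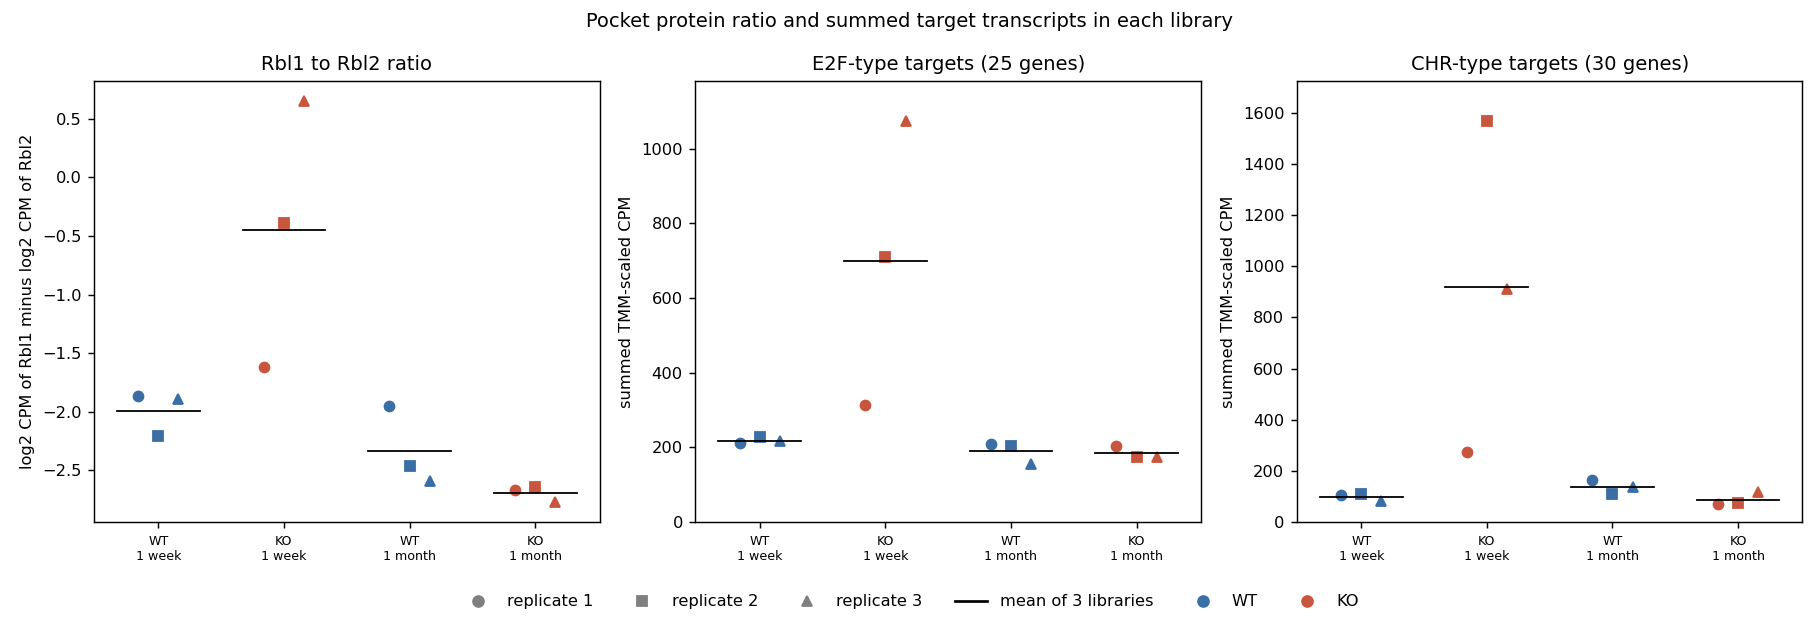
Log2 CPM of Rbl1 minus log2 CPM of Rbl2 (left), and the summed TMM-scaled CPM of 25 known E2F-type targets (middle) and 30 known CHR-type targets (right), in each of the 12 libraries by genotype and time; points are libraries, shapes replicates, bars the mean of 3 libraries. At 1 week all KO libraries sit above all WT libraries in each panel, and KO replicate 1 is the KO library nearest to WT.

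Summed markers of endothelium, immune cells and smooth muscle were also higher in every KO than in every WT library at 1 week. The sums of stromal and urothelial markers overlapped between the genotypes. Over all genes tested, 14.1% were separated upward and 12.5% downward. Endothelial markers (4 genes) summed to 147 to 166 CPM in WT and 241 to 443 CPM in KO, with 3 of 4 separated upward. Immune markers (7 of 8 listed were in the table) summed to 143 to 248 and 273 to 603 CPM, with 3 of 7 upward, and smooth muscle markers (6) to 110 to 289 and 351 to 1093 CPM, with 2 of 6 upward. Stromal markers (8) summed to 3599 to 5845 and 5319 to 10518 CPM, with 4 of 8 upward, and urothelial markers (18) to 13231 to 16230 and 11534 to 15273 CPM, with 2 of 18 downward, a share near that of all genes. At 1 month the immune sum was 623 to 1247 CPM in WT and 319 to 382 CPM in KO, the stromal sum 9967 to 13806 and 7857 to 9585 CPM, the endothelial sum 122 to 152 and 163 to 314 CPM, and the urothelial sum 17267 to 31251 and 12374 to 17856 CPM. Separated downward there were 3 of 7 immune, 1 of 8 stromal and 4 of 18 urothelial markers, against 7.58% of all genes. Separated upward were 2 of 4 endothelial and 1 of 18 urothelial markers, against 5.72%. Each list was detected in every library, with 1 marker (Cd68, immune) at 0 in KO replicate 3 of 1 week and in WT replicate 1 of 1 month. Their part in the results was not tested.

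The DNA-binding subunits of the E2F side did not separate by genotype. E2F4 and E2F5 are usually classed as the repressor E2Fs that pocket proteins recruit, and DP1 (Tfdp1) is the partner they need to bind DNA. E2f4 (chr8:105297663-105305370, plus strand) had 6.20, 9.69 and 5.91 CPM in WT and 5.0, 8.50 and 12.5 CPM in KO at 1 week, with log2 fold change 0.25 (SE 0.46, edgeR adjusted p = 0.806). The lowest and the highest library were both KO, and without KO replicate 3 the log2 fold change was -0.14. At 1 month it had 3.93, 4.14 and 9.33 CPM in WT and 8.01, 7.03 and 7.61 CPM in KO, with log2 fold change 0.47 (SE 0.37, edgeR adjusted p = 0.480). WT replicate 3, of batch 3, was above all KO libraries, whereas both WT libraries of batch 2 were below them: the log2 fold change was 0.85 within batch 2 and -0.28 within batch 3.

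E2f5 (chr3:14578641-14606309, plus strand) overlapped between the genotypes at both times. It had 12.9, 13.9 and 21.8 CPM in WT and 18.6, 15.4 and 21.9 CPM in KO at 1 week (log2 fold change 0.20, SE 0.34, edgeR adjusted p = 0.791), with a log2 fold change of 0.02 when KO replicate 3 was left out. At 1 month it had 25, 19.8 and 11.9 CPM in WT and 25.8, 21.4 and 15.5 CPM in KO (log2 fold change 0.17, SE 0.24, edgeR adjusted p = 0.707). In both genotypes the batch 3 library was the lowest.

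Tfdp1 (chr8:13338751-13378448, plus strand) had 2.80, 3.39 and 5.6 CPM in WT and 4.59, 6.74 and 8.99 CPM in KO at 1 week. Only WT replicate 3 and KO replicate 1 crossed, and the log2 difference of 0.78 (SE 0.47, edgeR adjusted p = 0.448) was 0.48 without KO replicate 3. At 1 month Tfdp1 had 1 to 8 counts in each library, 0.590, 0.720 and 0.918 CPM in WT and 0.986, 0.639 and 0.152 CPM in KO, and it did not pass the filter on low counts, so a genotype difference was not detectable at this depth. Its WT level was 2.80 to 5.6 CPM in the table of 1 week; both tables were scaled separately and come from different batches.

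The MuvB core showed no separated member at either time. Rbbp4, a histone-binding WD40 protein that also serves in several chromatin complexes, lies at chr4:129307100-129335370 (minus strand). It had 147, 167 and 139 CPM in WT and 128, 134 and 327 CPM in KO at 1 week. KO replicate 3 was far above the other 5 libraries, and the other 2 KO libraries were below all WT libraries. The log2 fold change was 0.38 (SE 0.41, edgeR adjusted p = 0.671) with that library and -0.25 without it. At 1 month Rbbp4 had 79.9, 88.0 and 141 CPM in WT and 131, 123 and 170 CPM in KO, for a log2 fold change at 0.48 (SE 0.20, unadjusted p = 0.0273, edgeR adjusted p = 0.179). Within each batch the KO libraries were above the WT libraries, with a log2 fold change of 0.59 in batch 2 and 0.27 in batch 3. Pooled, the groups overlapped because WT replicate 3 lay above KO replicates 1 and 2. Its close paralog Rbbp7, chosen after its values were seen, had log2 fold change 0.47 (SE 0.23, edgeR adjusted p = 0.267) at 1 month, 0.78 within batch 2 and -0.15 within batch 3; whether reads were shared between the 2 paralogs was not tested.

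Lin54, the subunit that binds the CHR element, lies at chr5:100441918-100500639 (minus strand). It varied little at 1 week, with 13.7, 15.8 and 15.0 CPM in WT and 15.1, 14.6 and 16.6 CPM in KO. The group means were 14.8 ± 1.03 and 15.4 ± 1.02 CPM (SD, n = 3), and the log2 fold change was 0.05 (SE 0.29, edgeR adjusted p = 0.941), or -0.05 without KO replicate 3. At 1 month Lin54 had 8.46, 13 and 9.79 CPM in WT and 10.1, 7.83 and 7.76 CPM in KO (log2 fold change -0.28, SE 0.31, edgeR adjusted p = 0.626), with overlapping groups.

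Lin37, a subunit needed for repression by DREAM and not for activation by MuvB, lies at chr7:30555441-30559838 (minus strand). At 1 week it had 7.05, 6.77 and 6.43 CPM in WT and 7.43, 5.41 and 18.6 CPM in KO. As for Rbbp4, KO replicate 3 alone was high, and the value of 0.62 on the log2 scale (SE 0.52, edgeR adjusted p = 0.577) was -0.13 without it. At 1 month Lin37 had 9.25, 9.18 and 13.2 CPM in WT and 8.01, 9.43 and 8.22 CPM in KO, log2 fold change -0.28 (SE 0.30, edgeR adjusted p = 0.609); it was -0.08 within batch 2 and -0.66 within batch 3.

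Lin9, the scaffold of the core (chr1:180641150-180690694, plus strand), had 4.38, 3.15 and 2.07 CPM in WT and 3.65, 6.18 and 3.07 CPM in KO at 1 week (log2 fold change 0.44, SE 0.49, edgeR adjusted p = 0.682), and the value was 0.04 without KO replicate 2. At 1 month it had 0.590, 2.34 and 1.38 CPM in WT and 0.370, 2.24 and 3.65 CPM in KO, from 3 to 24 counts (log2 fold change 0.38, SE 0.72, edgeR adjusted p = 0.793). The sign differed between the batches, with -0.23 in batch 2 and 1.23 in batch 3. Lin52, the small subunit whose phosphorylation by DYRK1A allows DREAM to assemble (chr12:84451422-84546145, plus strand), was the scarcest subunit at 1 week: 0.851, 2.80 and 0.622 CPM in WT and 1.08, 1.21 and 1.64 CPM in KO at 1 week, from 6 to 24 counts (log2 fold change -0.13, SE 0.69, edgeR adjusted p = 0.940). At 1 month it had 1.18, 0 and 1.22 CPM in WT and 0, 1.44 and 1.37 CPM in KO, with at most 9 counts, and it did not pass the filter. Differences in Lin52 were not detectable at this depth.

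**Figure D3:**
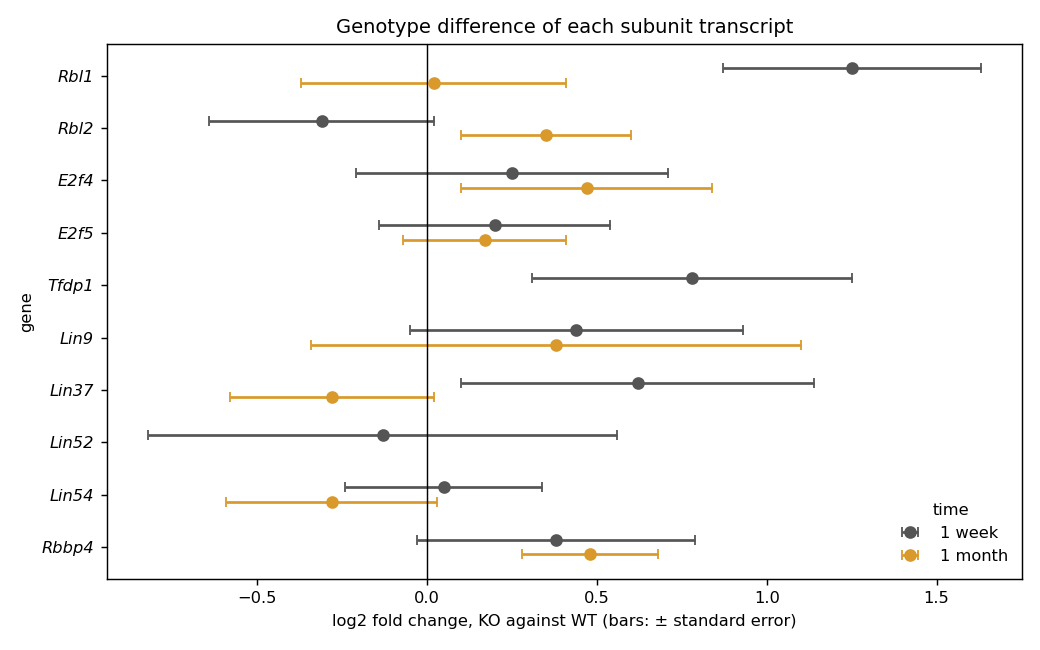
Log2 fold change of KO against WT (horizontal axis) for each subunit transcript (vertical axis) at 1 week (grey) and 1 month (orange), with bars of ± 1 standard error from the edgeR fit; Tfdp1 and Lin52 have no value at 1 month. At 1 week Rbl1 lies farthest from 0 at 1.25, and at 1 month Rbbp4 does at 0.48.

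Over the 10 subunits at 1 week, 8 log2 fold changes were above 0 and 2 below, with a median of 0.31 beside 0.02 over all genes tested. Without KO replicate 3 the median of the 10 was -0.09, beside -0.03 over all genes. At 1 month 6 of the 8 tested subunits were above 0, with a median of 0.26 beside -0.01 over all genes, and 0.00 without KO replicate 3. The sign of the median at 1 week thus rested on 1 library.

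The pattern of each subunit over the 12 libraries was compared with that of other genes, by the root mean square difference of log2 CPM after each gene was centred on its own mean. These values describe patterns that include time and batch. Among 13121 genes the nearest to Rbl1 were Rrm1, a subunit of ribonucleotide reductase (0.25), Topbp1, a factor of replication and of the DNA damage checkpoint (0.29), and Ets1, a transcription factor (0.30), where the SD of Rbl1 itself was 1.20. All 3 were higher in KO at 1 week without overlap: Rrm1 had 26.5 to 35.9 CPM in WT and 38.8 to 126 CPM in KO, with an edgeR log2 fold change of 1.50 (adjusted p = 0.190). Because these genes were chosen for their likeness to Rbl1 in the same libraries, their separation adds no support for that of Rbl1. At 1 month Rrm1 had 10.6 to 13.4 and 9.99 to 12.5 CPM. The nearest to Rbl2 were Amotl1 (0.18), Ccdc137 (0.19) and Lpar6 (0.20), where the SD of Rbl2 was 0.57. Among the subunits themselves, E2f4 and Rbbp4 were the most alike pair (0.26, with SDs of 0.44 and 0.45). Rbl1 and Tfdp1 were nearest to each other (0.58, with SDs of 1.20 and 1.35), Lin9 was nearest to Rbl2 (0.63, SD of Lin9 0.91), and Rbl2 was nearest to Lin54 (0.48). For Lin54 (nearest to Rbl2), Lin37 (nearest to Rbbp4, 0.49) and E2f5 (nearest to Lin37, 0.53), the distance exceeded their own SDs of 0.36, 0.45 and 0.38, so these were no more like another subunit than like a flat line. Lin52 was nearest to Rbbp4 (0.92), close to its own SD of 1.00.

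The genes that bind, replace or control the subunits were described from a list of 22. At 1 week 21 were tested and 0 were called by edgeR; DESeq2 called 6, all higher in KO, against 7.50% of all genes. Without overlap, 8 were higher and 1 (Tfdp2, chosen after its values were seen) lower, against 14.1% and 12.5% of all genes. The median log2 fold change of the list was 0.16. Ccne1, the cyclin that drives the G1/S transition with CDK2, had 0.608, 0.350 and 0.518 CPM in WT and 2.70, 8.61 and 3.68 CPM in KO (log2 fold change 3.32, SE 0.65, edgeR adjusted p = 0.109). E2f8, an atypical repressor E2F made in S phase, had 0.608, 1.05 and 0.104 CPM in WT and 5.94, 14.1 and 74.4 CPM in KO (log2 fold change 5.72, SE 1.20, edgeR adjusted p = 0.115). Ccnd2, the D-type cyclin that activates CDK4 and CDK6, had 454, 539 and 600 CPM in WT and 1395, 947 and 1475 CPM in KO (log2 fold change 1.26, SE 0.31, edgeR adjusted p = 0.139). In all 3 the KO libraries lay above WT, although their levels in WT ranged widely. They were named for the smallest p of the list, so this separation follows in part from that choice. The partners of the activating MuvB complex, chosen after their values were seen, lay the same way. Mybl2 (B-MYB) had 1.58, 1.87 and 3.63 CPM in WT and 5.13, 8.17 and 12.7 CPM in KO, and Foxm1 had 1.58, 2.45 and 1.87 CPM in WT and 4.73, 15.4 and 4.29 CPM in KO, with edgeR adjusted p = 0.181 and 0.195. Without KO replicate 3, where edgeR called 2.45% of genes, Ccne1 and E2f8 passed the threshold.

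At 1 month 19 of the 22 were tested and 0 were called by edgeR, with 1 by DESeq2, a median of 0.00, and none separated by genotype, against 5.72% of all genes upward and 7.58% downward. Cdk2, the kinase partner of cyclin E, had 1.38, 2.16 and 5.51 CPM in WT and 6.78, 4.47 and 10.2 CPM in KO (log2 fold change 1.35, SE 0.41, edgeR adjusted p = 0.0934). Ccnd1, another D-type cyclin, had 64.1, 51.5 and 104 CPM in WT and 26.8, 37.2 and 83.4 CPM in KO (log2 fold change -0.67, SE 0.23, edgeR adjusted p = 0.120). Cdkn1b, the CDK inhibitor p27, had 14.4, 19.1 and 188 CPM in WT and 50.4, 56.6 and 153 CPM in KO (log2 fold change 0.98, SE 0.37, edgeR adjusted p = 0.161). For Cdkn1b the difference between batches was larger than that between genotypes. Without KO replicate 3, the 1-month library with Xist, edgeR called 12.3% of all genes and 5 of the 19, with Cdk2, Cdkn1b and Rbbp7 higher and Ccnd1 and E2f1 lower.

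The known targets of DREAM were read from 2 lists. Of 25 targets of the E2F type, 23 were tested at 1 week: 0 were called by edgeR, 13 had an unadjusted p under 0.05 (15.5% of all genes did), all higher in KO, 12 were called higher by DESeq2 (7.50% of all genes in either direction), and 12 were higher without overlap (14.1% of all genes). The median log2 fold change was 1.82. Brca1 had 1.82, 2.22 and 1.66 CPM in WT and 7.56, 12.7 and 19.4 CPM in KO (log2 fold change 2.79, SE 0.48, edgeR adjusted p = 0.0927). Mcm3 had 15.4, 13.5 and 12.9 CPM in WT and 32.4, 80.4 and 119 CPM in KO (log2 fold change 2.47, SE 0.48, edgeR adjusted p = 0.109). KO replicate 1 was the nearest to WT in both. With KO replicate 3 left out, 2 of 24 tested passed the threshold (Brca1 and Mcm3), against 2.45% of all genes, and the median was 1.21.

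Of 30 targets of the CHR type, 24 were tested at 1 week: 0 were called by edgeR, 20 had an unadjusted p under 0.05, all higher in KO, 19 were called higher by DESeq2, and 19 were higher without overlap, beside the same shares of all genes (15.5%, 7.50% and 14.1%). The median log2 fold change was 3.83. Mki67 had 2.67, 2.92 and 1.87 CPM in WT and 27.3, 192 and 158 CPM in KO (log2 fold change 5.66, SE 0.79, edgeR adjusted p = 0.0844). Cenpe, a kinesin of the kinetochore, had 2.43, 1.63 and 1.55 CPM in WT and 14.2, 84.4 and 66.0 CPM in KO (log2 fold change 4.86, SE 0.72, edgeR adjusted p = 0.0927). Tpx2, a spindle assembly factor, had 3.28, 3.15 and 3.21 CPM in WT and 16.5, 76.0 and 74.0 CPM in KO (log2 fold change 4.10, SE 0.62, edgeR adjusted p = 0.0927). Even the lowest KO library was several times above WT in these genes, which were named for the smallest p of the list. Leaving out KO replicate 3, edgeR called 16 of 26 tested (2.45% of all genes), all higher, with a median of 4.10. The calls of this list thus depended on that library, and the set of genes tested changed with it. For the 19 genes without overlap, leaving out 1 library could not change the direction, so the kept direction adds no support. The subunits, by contrast, had a median of 0.31 and -0.09 in the same fits with 0 called in each.

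At 1 month the target lists lay near or below 0. Of the E2F type 19 were tested, 0 were called by edgeR, 2 were lower without overlap, a share near the 7.58% of all genes, and the median log2 fold change was 0.08. Mcm5, of the replicative helicase, had 15.0, 10.4 and 6.43 CPM in WT and 4.44, 4.95 and 3.20 CPM in KO (log2 fold change -1.30, SE 0.34, edgeR adjusted p = 0.0642). Mcm6 had 6.10, 3.42 and 3.82 CPM in WT and 1.11, 1.76 and 1.22 CPM in KO (log2 fold change -1.70, SE 0.48, edgeR adjusted p = 0.0801). Mcm2 lay the other way, with 1.38, 2.88 and 7.65 CPM in WT and 5.79, 6.71 and 10.7 CPM in KO (log2 fold change 1.12, SE 0.41, edgeR adjusted p = 0.143). Of the CHR type 15 were tested, a set that differs from that of 1 week. Below 0 were 13 of them, against 6116 of 12139 genes, with a median of -0.51. Without overlap 3 were lower, against 7.58% of all genes. Of these 15, 1 passed the threshold, where edgeR called 2.22% of all genes. It was Cdc25b, a phosphatase that activates CDK1, with 53.7, 49.3 and 56.8 CPM in WT and 18.7, 24.9 and 34.4 CPM in KO (log2 fold change -1.06, SE 0.23, edgeR adjusted p = 0.0327). This call was lost in the fit with no batch covariate and in the fit of all 12 libraries, where 0 genes passed at 1 month. With the KO replicate 3 of 1 month left out, 2 of 15 were called (Cdc25b and Mki67, both lower), a share near the 12.3% of all genes. The median of the list was then -0.93. The immune and stromal marker sums given above were also lower in KO at 1 month without overlap. Of the stromal markers, however, only 1 of 8 was itself separated downward. Pdgfrb, another stromal marker, was called higher in KO (log2 fold change 1.30, edgeR adjusted p = 0.0218). The part of these markers in the values of the target lists was not tested.

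**Figure D4:**
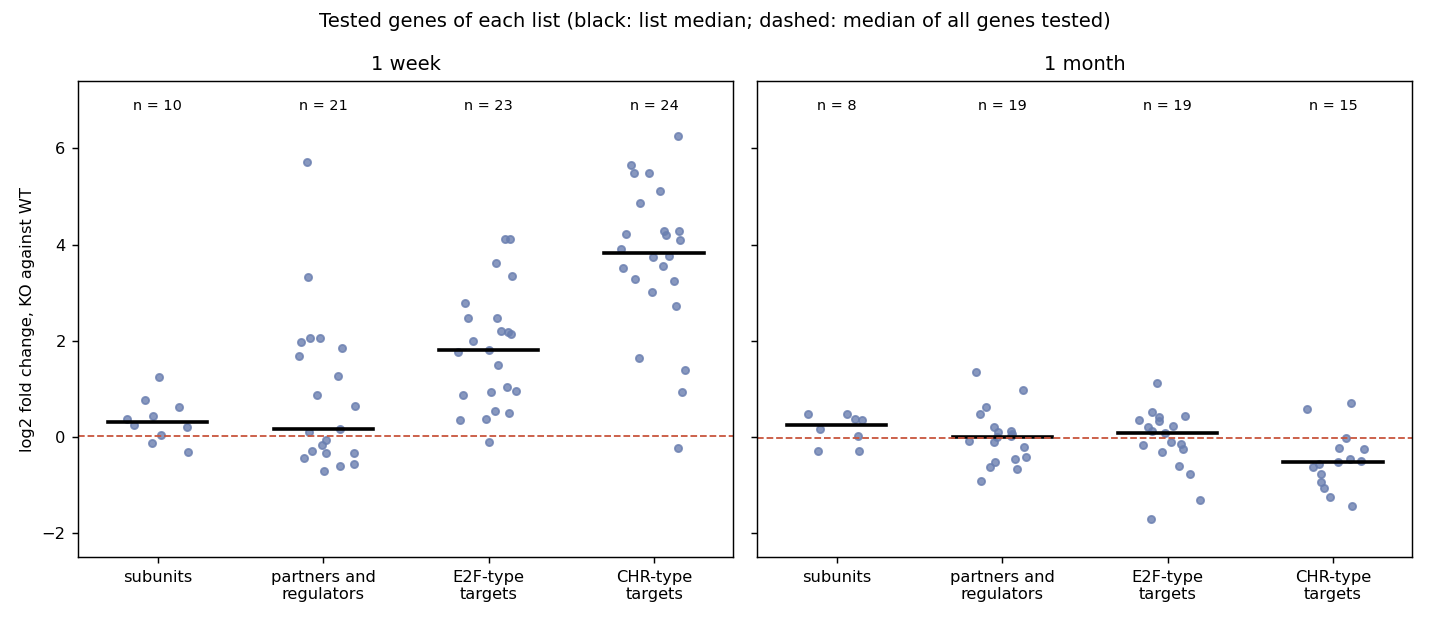
Log2 fold change of KO against WT (vertical axis) for each tested gene of the 4 lists (horizontal axis) at 1 week (left) and 1 month (right); each point is 1 gene, black bars are list medians and the dashed line is the median of all genes tested. At 1 week the median is 0.31 for the subunits, 1.82 for the E2F-type and 3.83 for the CHR-type targets, and at 1 month the CHR-type median is -0.51.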

How the data were processed

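RNA was counted in 12 libraries of peeled mouse urothelium. The deposited tables, 1 for each time, hold raw counts per gene for 23337 symbols and 0 unassigned columns. Per the labels' protocols, libraries were made with a stranded 3′ kit (QuantSeq, forward). The submitters' processing notes name Bowtie, TopHat, HTSeq, DESeq2 and the build mm10; versions and annotation are not given in the sources used here. The labels give genotype and time, which set the groups; replicate numbers follow accession order. The labels tie each library to an animal number and give nothing on litters. For WT replicate 3 of 1 month, title and library name carry different numbers, and the column was matched by library name.

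Counts were tested with edgeR 4.0.16 (R 4.3.3; quasi-likelihood, robust, TMM, default filter on low counts, two-sided, adjusted p threshold 0.05 over all genes tested), with a fit per time, batch as a covariate at 1 month, and an interaction in a fit of 12 libraries with batch. The SE is the absolute log2 fold change over the square root of F. Log2 CPM used a prior count of 2. The steps were tested on simulated data. DESeq2 1.42.0, other scaling, filters and dispersions, single batches and leaving out each library were alternatives. A floor of 3 counts covers counting error only, since no molecular identifiers are stated. Positions are from GENCODE M21 (GRCm38, the same assembly as mm10), promoters from RefSeq.

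The subunits, the lists and the alternatives were chosen with earlier results of these data known. By a rule for named genes, the text names all 10 subunits, Stag2, genes called in a list or else the 3 with the smallest p at each time, and for Rbl1 and Rbl2 the 3 most alike genes; others are said to be chosen after their values were seen. One gene that this rule names is not reported here.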

Additional observations from a re-analysis of the deposited data

Results flagged for a closer look

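The ratio of Rbl1 to Rbl2 differed between the genotypes in opposite directions at 1 week and at 1 month. The difference of KO against WT was 1.54 on the log2 scale at 1 week, where KO libraries were all above WT libraries, and -0.36 at 1 month, where they were all below. At 1 month the gap was narrow, from -2.64 in the highest KO to -2.59 in the lowest WT library, with 19 to 35 counts of Rbl1 per library. Without KO replicate 3 the difference at 1 week was 0.99, and without WT replicate 1 that at 1 month was -0.16. Each had an exact permutation p of 0.1, the smallest that 3 against 3 can give, and the difference between the times was not tested for the ratio. At 1 week the 3 KO libraries were also the 3 that carried Xist, and genotype and sex cannot be told apart there. Groups of 3 are too small for a test of outlying libraries.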

How the results depend on the processing

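No subunit was called in any of the alternatives tried, and of 427 subunit values 33 changed sign, none of them a called value; the cause was not tested. The lowest edgeR or DESeq2 adjusted p of Rbl1 at 1 week was 0.0530 and the highest 0.610, with log2 fold changes of 0.90 to 1.49. In batch 2 alone at 1 month the log2 fold change was -0.13 for Rbl1 and -0.26 for Lin9. The difference between times changed sign for E2f5 (0.26 with library size only, 0.09 with no filter) and Lin9 (0.18 and 0.03). Leaving out 1 library gave ranges that crossed 0 at 1 week for E2f4 (-0.14 to 0.50), Lin37 (-0.13 to 0.91), Lin52 (-0.54 to 0.80), Lin54 (-0.05 to 0.09) and Rbbp4 (-0.25 to 0.59), and at 1 month for Rbl1 (-0.14 to 0.21) and Lin9 (-0.26 to 1.25). For the difference between times they crossed 0 for E2f4 (-0.02 to 0.66), E2f5 (-0.27 to 0.17), Lin9 (-0.66 to 0.84), Lin52 (-0.91 to 1.42) and Rbbp4 (-0.11 to 0.71). The ratio of Rbl1 to Rbl2 ranged from 0.99 to 2.12 at 1 week and from -0.48 to -0.16 at 1 month. Its sign could not change when 1 library was left out, because KO and WT libraries did not overlap at either time. The kept sign therefore adds no support.

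Counts of all genes called depended strongly on the setting. At 1 week 8 genes became 62 with no filter, 957 with DESeq2, 553 in 1 fit of all 12 libraries and 0 to 320 without 1 library. At 1 month 269 became 561 with library size only, 1276 with no filter, 781 with DESeq2, 0 in 1 fit of all libraries, 0 with no batch covariate, 1474 in batch 2 alone and 45 to 1522 without 1 library. For the difference between times 0 became 137 with no filter, 917 with DESeq2 and 0 to 440 without 1 library. The list counts without KO replicate 3 of 1 week or of 1 month were chosen after seeing the data. No paired analysis was possible because replicates were numbered in accession order and the labels pair no animals across genotypes. With 0 to 24 counts per library at 1 month, Tfdp1, Lin9 and Lin52 were limited by depth.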
